A study of Mus musculus with 36 samples.

Results

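Ribosome footprints were compared between mouse embryonic fibroblasts that had recovered for 2 h in normal medium after 15 min of severe hyperosmotic stress and fibroblasts that were never stressed. The members are the 2 Ribo-seq libraries whose titles name 700 mOSM for 15 min with 2 h of recovery. They were chosen by title and set against the 2 libraries titled Normal Condition, so that 4 of the 18 footprint libraries and of the 36 libraries of the series enter the main comparison. All cells were of the strain C57BL/6J and were grown in the same high-glucose medium with serum. The stressed cells had received sorbitol, a poorly permeable solute, to bring the medium to 700 mOsm, and the unstressed cells had not. Reference points from the same exposure are the 15 min of stress itself and 15 min of recovery after it. Values are also given from cells held for 2 h at 500 mOsm, and from cells held for 2 h at 700 mOsm (the long stress) and returned to normal medium for 2 h. The RNA-seq libraries labelled as 2 h of recovery after the short stress carry deposited names that read the other way round from their labels and were not used, so that no translational efficiency is given for this state.

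In ribosome profiling, the stretch of mRNA held by a ribosome is protected from nuclease digestion, sequenced, and counted per coding sequence, so that a footprint level reflects both the amount of an mRNA and how densely ribosomes sit on it. Hyperosmotic medium draws water out of cells, and cells respond by slowing protein synthesis, activating stress kinases and later accumulating protective solutes. Cycloheximide, which holds elongating ribosomes in place, was in the lysis buffer, per the labels' protocols. Footprints were taken from the pooled sucrose gradient fractions from the single-ribosome peak to the bottom.

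Transcripts carry Ensembl identifiers in the deposited lists, without gene symbols, and no table used here links the identifiers to genes. Transcripts are therefore described by their coding length, their footprint and RNA levels and their course over the conditions, no pathway or cell type list was applied, and the fibroblast identity of the cells was not checked against marker genes. Per gene, a bulk library cannot tell fewer translating cells from less translation in each cell. Footprint levels are RPKM (reads relative to the coding length and to the library's total) divided by a scaling factor per library. A change is a difference of mean log2(scaled RPKM + 1), which understates changes of low transcripts. It is relative to the typical abundant transcript, so that a change in the total amount of translation cannot be read from it.

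The recovery libraries were the most deeply read of all footprint libraries, with 8754287 and 9124787 reads on 10493 and 10513 listed transcripts. The unstressed libraries held 7261234 and 7593983 reads on 10421 and 10458 transcripts. Replicate libraries were barely further apart than sampling alone would put them. The mean chi-square of their reads per transcript and degree of freedom was 1.07 for the unstressed and 1.04 for the recovery pair, where sampling noise alone gives 1. Each pair was therefore averaged and counted as 1 sample, and the comparison has no replicate error and no p-value. Between a recovery and an unstressed library the same statistic was 8.73 to 9.12.

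After 2 h of recovery the footprints of most transcripts stood close to their unstressed level. Of 11037 transcripts in the footprint lists, 8849 passed the filter on low values, a mean scaled RPKM of at least 2 over all 18 libraries. Their median log2 change was -0.03, and 82.9% of them were less than 1.25-fold apart in the 2 states. The corresponding share was 94.8% between the 2 unstressed libraries and 95.7% between the 2 recovery libraries. The SD of the change across transcripts was 0.28 on the log2 scale, against 0.18 and 0.16 for the differences within the pairs. A change compares means of 2 libraries, while a pair compares single libraries, whose difference carries more sampling noise. The within-pair values here and below are therefore not on the same footing. The 5th and 95th percentiles of the change were -0.45 and 0.35.

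A small group of transcripts stood apart. At least 2-fold higher footprints were found in 61 transcripts (0.689% of those kept), and at least 2-fold lower footprints in 24 (0.271%). With the wider rule of 1.5-fold the numbers were 174 (1.97%) and 183 (2.07%). Within the unstressed pair, 17 transcripts (0.192%) were 2-fold or more apart in either direction, and within the recovery pair 12 (0.136%). At 1.5-fold these were 67 (0.757%) and 49 (0.554%). The counts of low transcripts depend on the pseudocount. With 5 in place of 1 the 2-fold counts were 27 higher and 5 lower, and the 1.5-fold split became 113 higher against 47 lower. The balance of small rises and falls thus changed with the weight given to low values.

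**Figure D1:**
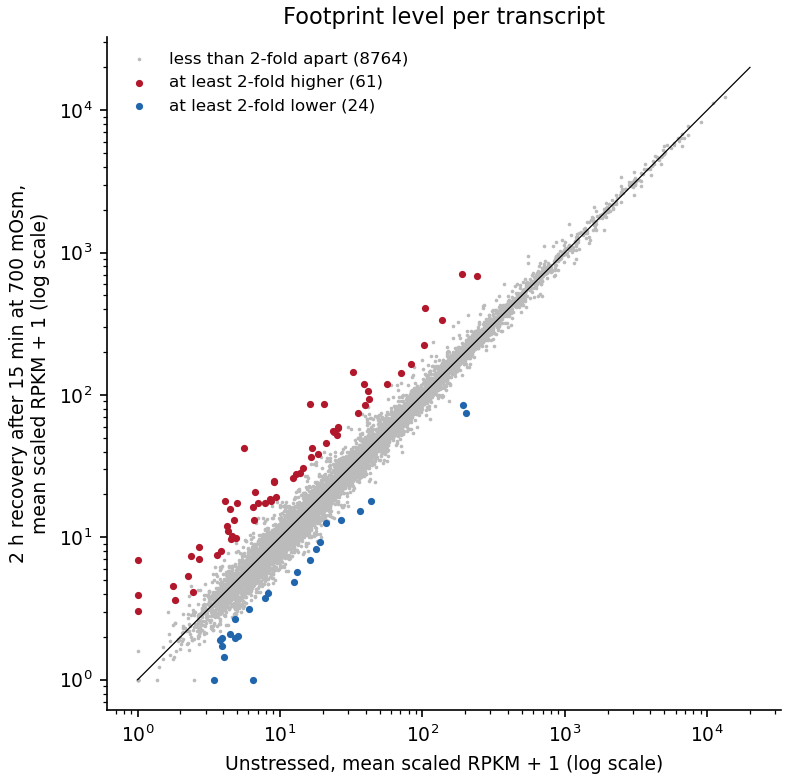
Mean footprint level of each of the 8849 transcripts in unstressed cells (x axis) and after 2 h of recovery (y axis), both as scaled RPKM + 1 on log scales, with the line of equal levels. The 61 higher transcripts (red) are spread over nearly the whole range of levels up to 704, while the 24 lower ones (blue) mostly have low levels.

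The differences beyond the noise of a pair were clearest in well-read transcripts. Among the 1674 transcripts with a mean of at least 1000 reads over the 4 libraries, the SD of the change was 0.20, against 0.05 within the unstressed and 0.04 within the recovery pair. In this class 9 transcripts passed 2-fold upwards and 1 downwards, and 29 and 1 passed 1.5-fold. Among the 2584 transcripts with 300 to 1000 reads, 12 were 2-fold higher and 2 lower, and among the 2759 with 100 to 300 reads 16 and 7. The 312 transcripts with under 30 reads had an SD of 0.51, against 0.53 within either pair, and held 8 of the higher and 9 of the lower calls. Since the pair values are for single libraries, this does not show that the class varied by noise alone. The median change went from -0.13 in the class with the fewest reads to 0.04 in that with the most.

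Overlap between the libraries and read numbers describe how firmly each call rests on the data. Both recovery libraries lay above both unstressed libraries in 59 of the 61, as they did in 28.4% of all transcripts kept. The 61 were chosen on these 4 libraries, so this follows largely from the choice, as it does for the lower ones. Of the 61, 54 were listed in all 4 libraries, 53 had a mean of at least 30 reads and 37 of at least 100. In 3 of them neither unstressed library listed the transcript. Their median log2 change was 1.25 in size and the highest 2.94. Of the 24 lower transcripts, 20 did not overlap between the states, against 38.2% of all transcripts, 16 were listed in all 4 libraries and 10 had a mean of at least 100 reads. In 5 of the lower and 2 of the higher transcripts, 1 library of a pair did not list a transcript that had at least 20 reads in the other. Over all 8849 transcripts this occurred in 5 of the unstressed and 5 of the recovery pair (0.0565% each), so that most such cases were among the calls. How the authors assigned reads that match near-identical transcripts is not given in the sources used here, and such transcripts are uncertain.

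Among the 56 higher transcripts with non-overlapping libraries and at least 40 reads, ENSMUST00000038816, with a coding sequence of 99 codons, had the largest log2 change, 2.94. The next transcript, at 2.79, ranked above it with a pseudocount of 0.25 (4.62 against 3.13), without normal replicate 1 (2.79 against 2.63) and without recovery replicate 1 (2.96 against 2.83). ENSMUST00000038816 was at 3.44 and 5.79 scaled RPKM in the unstressed libraries and at 44.3 and 38.0 after 2 h of recovery, so that the groups were far apart. The recovery level was 8.87 times the unstressed level, with a 95% counting interval of 5.72 to 14.4 from 229 reads against 22. It was unlisted in both libraries of 15 min of stress and had reached 17.0 and 15.5 after 15 min of recovery. It was thus above unstressed cells early and higher again at 2 h. Its highest footprint levels in the 18 libraries, 59.4 and 65.9, were those 2 h after the long stress. Its RNA was at 1.20 ± 0.436 scaled FPKM (the corresponding unit for RNA fragments; mean ± SD, n = 2) in unstressed cells and at 4.52 ± 1.14 (n = 2) after 15 min of recovery.

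That next transcript, ENSMUST00000052776, with 128 codons, was listed in neither unstressed library and in no stress or 15 min recovery library. It had 18 and 25 reads, or 5.10 and 6.81 scaled RPKM, 2 h after the short stress. The corresponding libraries of the long stress held 62 and 63 reads and 33.1 and 33.4 scaled RPKM. Of the 18 footprint libraries, the 4 of late recovery listed it. It passed the filter on low values through the long-stress libraries (mean 4.36 over the 18 libraries, and 0.662 with those 2 set to 0), so that its high level there was a condition for its being described. Since unlisted transcripts may have had a few reads, no fold is given. Its RNA was low, at 0.789 ± 0.789 in unstressed cells and 0.573 ± 0.0571 after 15 min of recovery (mean ± SD, n = 2 each).

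On the lower side 19 transcripts met the same conditions, and ENSMUST00000098503, with 637 codons, had the largest log2 change. It was at 3.74 and 2.38 scaled RPKM in the unstressed libraries, at 0.875 in 1 recovery library and unlisted in the other. Its log2 change of -1.55 rested on 93 and 16 reads and was -1.09 without recovery replicate 1 and -2.00 without recovery replicate 2. The second, ENSMUST00000072383, with 476 codons and a change of -1.43, ranked above it without recovery replicate 1 (-1.43), without normal replicate 1 (-1.41 against -1.30) and with a pseudocount of 5 (-1.39 against -0.57). It rested on 4567 unstressed and 1969 recovery reads. It stood at 203 and 197 scaled RPKM in unstressed cells and at 73.2 and 73.9 after recovery, 2.72 times lower (95% counting interval 2.58 to 2.87). During the stress it was at 260 and 250, so that in this exposure its level was below that of unstressed cells after the return to normal medium and not before, at 87.7 and 86.0 after 15 min. The late libraries of the long stress held lower levels, 37.6 and 42.3. Its RNA was close in both states, with 15.6 ± 1.43 in unstressed cells and 14.5 ± 0.374 after 15 min of recovery (mean ± SD, n = 2 each).

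The called transcripts of highest footprint level show how different the courses were. They were picked after their values were seen and are given by coding length. A transcript of 605 codons was at 192 and 189 scaled RPKM in unstressed cells, 218 and 212 during the stress, 357 and 368 after 15 min of recovery and 711 and 698 after 2 h. Its 2 h level was 3.70 times the unstressed one (95% counting interval 3.60 to 3.81). Its mean was 369 after recovery from the long stress and 1013 after 2 h at 500 mOsm, above its level in recovery. Its RNA was 78.8 ± 8.50 in unstressed cells and 110 ± 2.45 after 15 min of recovery (mean ± SD, n = 2 each).

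The RNA of the other 4 went in both directions. That of a transcript of 161 codons was 120 ± 9.30 in unstressed cells and 97.1 ± 0.323 after 15 min of recovery. That of the 3 others was 32.3 ± 3.53 and 51.5 ± 0.231 (163 codons), 46.7 ± 5.67 and 65.0 ± 0.649 (290 codons) and 8.74 ± 2.42 and 13.6 ± 0.803 (406 codons; mean ± SD, n = 2 each).

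In footprints, the transcript of 161 codons was at 234 and 249 in unstressed cells, rose to 712 and 762 during the 15 min of stress, was at 346 and 333 after 15 min of recovery and at 698 and 678 after 2 h. It thus had 1 high level under stress and another late in recovery. Its mean level after 2 h at 500 mOsm was 2418. The transcript of 163 codons hardly moved during the stress, from 98.4 and 109 to 108 and 80.2, and then reached 278 and 283 after 15 min and 418 and 402 after 2 h of recovery, 3.95 times the unstressed level (interval 3.66 to 4.27). That of 290 codons went from 137 and 136 to 200 and 202 after 15 min and 327 and 338 after 2 h. That of 406 codons lost most of its footprints during the stress, from 106 and 97.4 to 10.9 and 17.7, and then passed its unstressed level, with 160 and 138 after 15 min and 224 and 222 after 2 h. The groups of 2 libraries did not overlap between unstressed cells and 2 h of recovery in any of these 5.

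On the lower side, a transcript of 120 codons was at 192 and 194 in unstressed cells, 216 and 309 during the stress, 161 and 147 after 15 min and 79.8 and 87.1 after 2 h of recovery. One of 534 codons fell from 43.4 and 41.9 to unlisted in both stress libraries, returned to 35.2 and 35.7 after 15 min, and was at 17.1 and 16.7 after 2 h. Its 2 h level was 2.53 times below the unstressed one (95% counting interval 2.27 to 2.81), and it lay below its own 15 min level. Both transcripts were already below both unstressed libraries at 15 min of recovery, and lower again at 2 h. Their RNA at 15 min of recovery, 25.4 ± 0.851 and 9.82 ± 0.983, lay within the spread of unstressed cells, 25.2 ± 6.04 and 10.2 ± 1.45 (mean ± SD, n = 2 each).

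**Figure D2:**
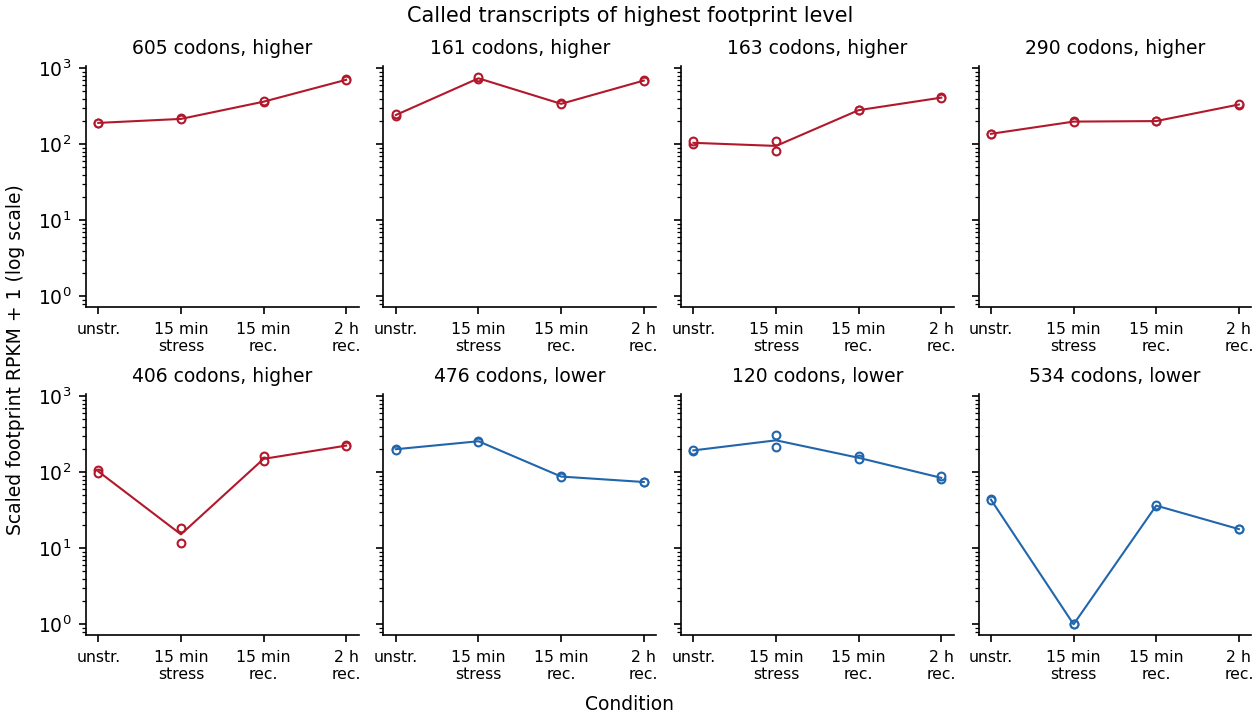
Scaled footprint RPKM + 1 (log scale) of the 5 higher (red) and 3 lower (blue) called transcripts of highest level, named by coding length, in unstressed cells, after 15 min at 700 mOsm, and after 15 min and 2 h of recovery. Open circles are libraries and lines join their means; the 605-codon transcript climbs at each step to 711 and 698, and the 534-codon one is unlisted under stress and lower at 2 h than at 15 min of recovery.

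The higher transcripts had low levels in unstressed cells, as did the 24 lower ones (median 7.02 scaled RPKM). Both sets were chosen on these libraries, so a low level there is not a trait of the higher set. The median scaled RPKM of the 61 was 8.14 in unstressed cells, against 22.9 for all transcripts kept, and 23.8 after 2 h of recovery. Their median at 15 min of recovery was 19.0, between these. The median log2 change of the 61 was 0.74 at 15 min and 1.25 at 2 h of recovery, comparisons that share the unstressed libraries. Set directly against 15 min of recovery, the 61 had a median change of 0.57 at 2 h, with 14 past 2-fold upwards and none downwards. In that contrast 0.633% of all transcripts kept were past 2-fold upwards and 0.441% downwards. At 1.5-fold 29 of the 61 were higher and 4 lower, against 2.7% and 2.96%. The 61 were chosen on the same 2 h libraries, so these counts describe them and test nothing.

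During the stress these 61 transcripts had differed in both directions. At 15 min of 700 mOsm their median log2 change was -0.91, as it was -0.92 over all transcripts, and 14 were at least 2-fold higher and 29 lower, where 16.8% and 48.9% of all transcripts were. At 1.5-fold these were 17 and 34, against 23.9% and 55.4%. In late recovery from the long stress their median level was 29.6 scaled RPKM, above the 23.8 after the short stress. Their median log2 change from unstressed was 1.55 after the long stress, where 41 of them passed 2-fold upwards and none downwards, against 3.89% and 7.21% of all transcripts. At 1.5-fold these were 49 and 0, against 8.59% and 20.3%. Among the 56 transcripts that were separated from unstressed cells and had at least 40 reads, 30 had their highest level of the 9 conditions in late recovery from the long stress and 12 in late recovery from the short one. The same shares over all transcripts were not computed. The 61 and the 56 were chosen for high values after the short stress against the same unstressed libraries that these comparisons use. The filter on low values also took in the libraries of the long stress. These counts are therefore a description and test nothing.

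The 24 lower transcripts had a median of 7.02 scaled RPKM in unstressed cells, 3.87 after 15 min of recovery and 2.93 after 2 h. Their median log2 change was -0.78 at 15 min and -1.25 at 2 h. For late recovery from the long stress it was -0.27, against -0.13 over all transcripts kept. There 2 of the 24 passed 2-fold upwards and 4 downwards, against 3.89% and 7.21% of all. Of the 19 that were separated and had at least 40 reads, 9 had their lowest level of the 9 conditions 2 h after the short stress, and 17 stood higher after the long stress than after the short one. Over all transcripts kept these shares were 7.58% and 41.4%. The 19 were chosen for low values in these same libraries, so the counts describe the choice.

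**Figure D3:**
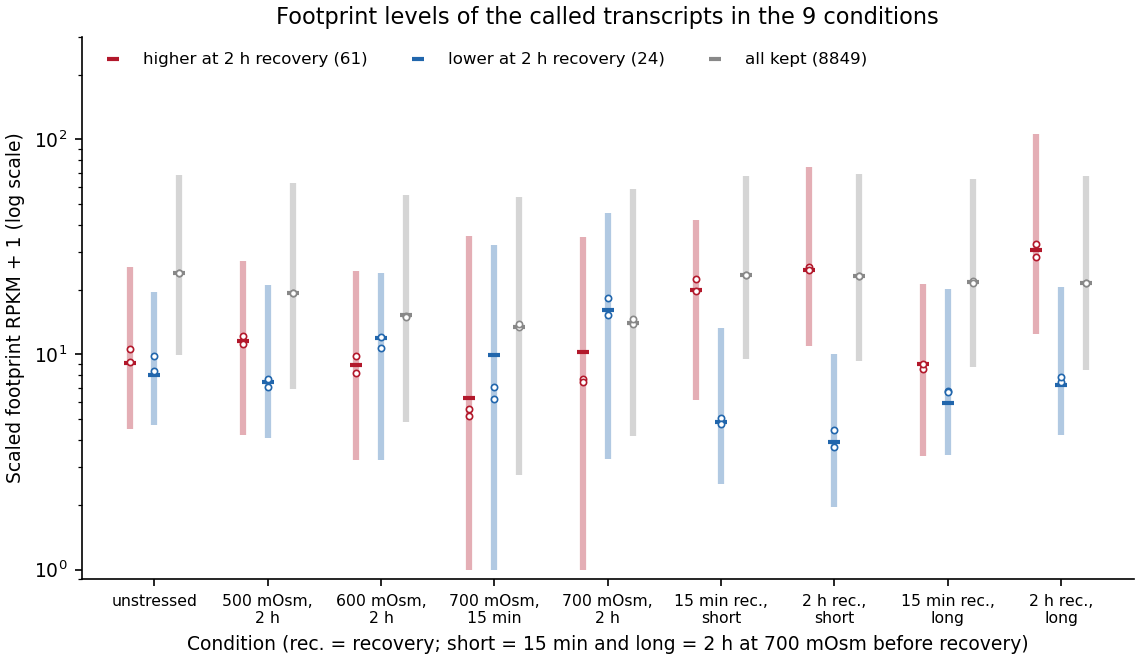
Footprint level (scaled RPKM + 1, log scale) of the 61 higher, the 24 lower and all 8849 transcripts in each of the 9 conditions. Dashes are medians of the condition means, bars the quartiles across transcripts and open circles the medians of each library; the higher set goes from 8.14 in unstressed cells to 23.8 in late recovery (2 h) from the short stress and 29.6 from the long one.

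The transcripts that differed most in early recovery stood closer to their unstressed level at 2 h. Of all transcripts kept, 57 (0.644%) were at least 2-fold higher and 56 (0.633%) lower after 15 min. The 57 had a median level of 7.80 scaled RPKM in unstressed cells, 22.9 after 15 min and 16.3 after 2 h of recovery, and their median log2 change went from 1.29 to 0.63. The 56 had medians of 6.01, 2.30 and 5.27, and changes of -1.24 and -0.28. The lower group thus came nearer to its unstressed level than the higher one. Both comparisons share the unstressed libraries, and the sets were chosen on the 15 min values, so that the smaller changes at 2 h are a description. The 15 min libraries were also shallower, with 3616708 and 3948180 reads.

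Transcripts whose footprints had dropped out of the lists under stress were nearly all listed again. Of 3260 transcripts listed in both unstressed libraries and in neither library of 15 min at 700 mOsm, 2823 were listed in both libraries of 15 min of recovery and 3150 in both of 2 h. The stress libraries were the shallowest of these, and listing depends on depth. In the other direction, 57 transcripts were listed in both recovery and neither unstressed library, with a median of 7.0 reads, and 26 in both unstressed and neither recovery library, with a median of 6.5 reads. Only 2 of the 57 and none of the 26 passed the filter on low values. The pool of translated transcripts was thus nearly the same, with 10151 listed in all 4 libraries of the 10267 listed in both unstressed ones. Summed RPKM came to 7.42% and 7.51% from the 10 highest transcripts after recovery, against 7.78% and 7.81% in unstressed cells and 13.5% in both libraries during the stress.

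The median change at 2 h differed little between transcripts that had behaved differently under stress, while the share of larger changes did differ. Among transcripts with a mean of at least 100 reads, classes were formed from the stress libraries and unstressed replicate 1, and the recovery was measured against unstressed replicate 2. The 993 transcripts unlisted in both stress libraries had a median log2 change of -0.10 at 15 min and -0.05 at 2 h of recovery. The 2064 that were listed and at least 2-fold lower under stress were at -0.07 and -0.01, and the 2676 within 2-fold at -0.04 and -0.03. The 1284 that were at least 2-fold higher under stress were at 0.01 and -0.01. At 2 h, 31 transcripts of the unlisted class (3.12%) passed 1.5-fold upwards and 13 (1.31%) downwards, against 20 (0.969%) and 15 (0.727%) of the listed, lower class. The class within 2-fold held 41 (1.53%) and 31 (1.16%), and the class higher under stress 28 (2.18%) and 15 (1.17%). These differences were not tested. Listing in the shallow stress libraries depends on read number, and beyond the minimum of 100 reads the classes were not matched for it.

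The RNA-seq libraries give a measure of the called transcripts that was not used to choose them. In early recovery from the same stress the RNA of the 61 higher transcripts was above that of all transcripts in the median. After 15 min of recovery their median RNA change was 0.40 on the log2 scale, against -0.01 over the 8845 transcripts found in both assays. In 22 of the 61 the RNA was at least 1.5-fold higher with both recovery libraries above both unstressed ones, where 1.36% of all transcripts were, and in none was it lower by the same rule (0.475% of all). During the 15 min of stress the median RNA change of the 61 was -0.03, with 6 higher and 12 lower, against 5.26% and 12.7% of all transcripts. In late recovery from the long stress it was 1.00, with 41 of the 61 higher and 1 lower, against 6.96% and 0.633%. The RNA of the 24 lower transcripts had a median change of -0.06 after 15 min of recovery, with 1 higher and 2 lower, against the 1.36% and 0.475% of all transcripts. In late recovery from the long stress it was 0.22, against 0.01 over all transcripts, with 6 higher and none lower, against the 6.96% and 0.633%. With 2 RNA libraries a group these counts rest on non-overlap and size and not on a test.

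**Figure D4:**
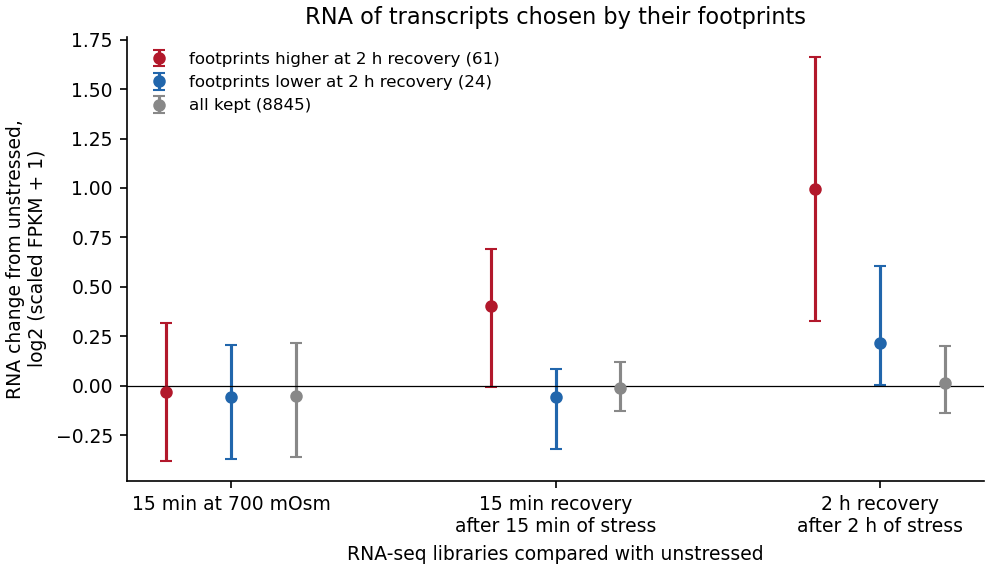
RNA change from unstressed cells (log2 of scaled FPKM + 1; points are medians over transcripts, bars the quartiles) for the 61 transcripts with higher and the 24 with lower footprints 2 h after the short stress, and for all 8845 transcripts in both assays. The higher set is at -0.03 under stress, 0.40 after 15 min of recovery and 1.00 in late recovery from the long stress.

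Sets were also chosen on RNA and read in footprints. The 120 transcripts whose RNA was higher after 15 min of recovery, by the rule above, had a median footprint change of 0.54 at 15 min and 0.36 at 2 h of recovery. At 15 min 53 of them had at least 1.5-fold higher and 2 lower footprints, against 2.93% and 4.17% of all transcripts. At 2 h 100 of the 120 had footprint levels above unstressed cells, 45 were at least 1.5-fold higher and 1 was lower, against 1.97% and 2.07% of all transcripts. The 42 whose RNA was lower after 15 min had median footprint changes of -0.50 and -0.47, and at 2 h none was 1.5-fold higher and 13 were lower. These sets were chosen on RNA among transcripts that had passed the footprint filter on low values. That filter includes the recovery libraries, so the sets are not fully independent of the footprints. By the same RNA rule, 616 transcripts were higher in late recovery from the long stress. Their median footprint change 2 h after the short stress was 0.08. Of these, 89 were at least 1.5-fold higher and 24 lower in footprints, against the same 1.97% and 2.07% of all transcripts. The 56 whose RNA was lower there had a median footprint change of -0.03, with 2 higher and 3 lower.

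The median footprint change differed widely between classes of coding length under stress and little after 2 h of recovery. During the 15 min of stress the median log2 change was 0.65 for the 180 transcripts with up to 100 codons, -1.72 for the 3166 with 401 to 800 codons and 1.67 for the 373 with over 1600 codons. After 15 min of recovery the shortest class had a median of 0.04 and the longest one of -0.08. After 2 h they lay between -0.04 and -0.02 in all 6 classes. The quartiles of the longest class narrowed from -0.32 and 0.23 at 15 min to -0.15 and 0.18 at 2 h. Transcripts with 101 to 200 codons held 18 of the 61 higher calls among 1096 transcripts (1.64%, against 0.689% of all) and 3 of the 24 lower ones (0.274%, against 0.271%). With at least 100 reads this class held 6 and 1 among 851 (0.705% and 0.118%). The 2475 with 401 to 800 codons and that many reads held 0.606% and 0.242%. The 1387 transcripts with 801 to 1600 codons held 1 higher (0.0721%) and 3 lower (0.216%). The 373 with over 1600 codons held 4 higher (1.07%) and none lower. The excess of higher calls at 101 to 200 codons was thus mostly seen among transcripts with few reads. The shares of calls in the other classes rest on small counts and were not tested, while the medians were close.

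**Figure D5:**
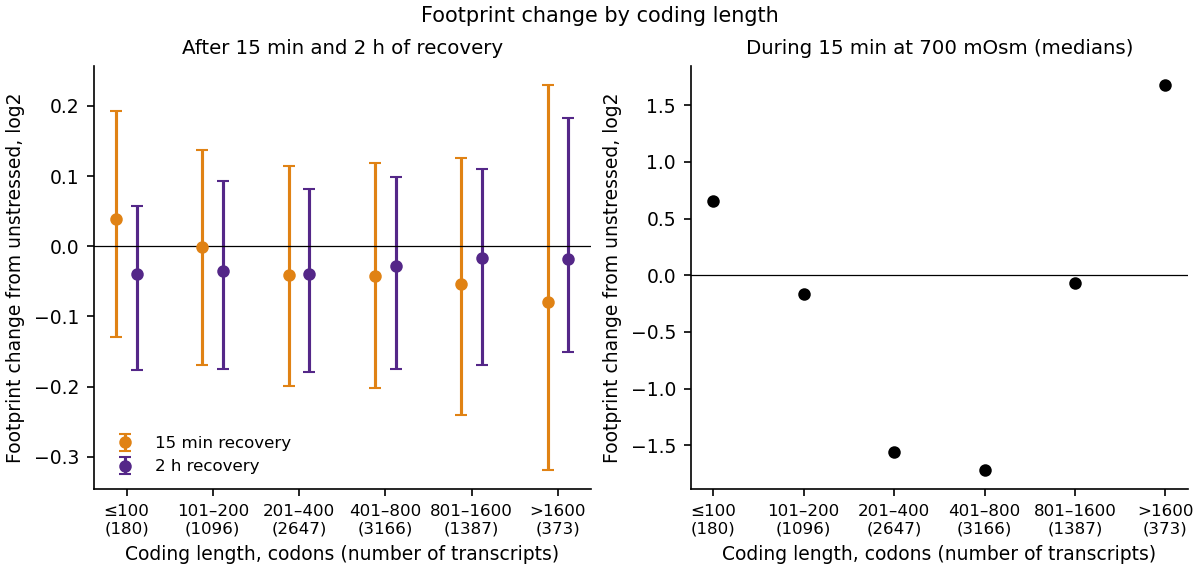
Footprint change from unstressed cells (log2) in 6 classes of coding length, after 15 min (orange) and 2 h (purple) of recovery in the left panel (medians with quartiles) and during 15 min at 700 mOsm in the right panel (medians, on a wider scale). The stress medians run from -1.72 to 1.67, and those at 2 h of recovery from -0.04 to -0.02.

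Transcripts with little RNA in unstressed cells held most of the larger differences. In the lowest quartile of unstressed RNA, 31 of 2212 transcripts (1.40%) passed 2-fold upwards and 16 (0.723%) downwards after 2 h. In the highest quartile 6 (0.271%) and 2 (0.0905%) of 2211 did, against 0.689% and 0.271% of all transcripts kept. The quartiles were not split by read number, and changes of transcripts with few reads spread more widely. The median change was -0.08 in the lowest quartile and 0.01 in the highest. The ratio of footprint to RNA level in unstressed cells, a measure of baseline translational efficiency, had a median of 0.60 on the log2 scale for the 61 higher transcripts, 1.77 for the 24 lower ones and 0.66 for all. Of the 24 lower transcripts 14 were in the highest quartile of this ratio, as were 13 of the 61 higher ones. The ratio uses the same unstressed footprint libraries as the change, so that the 2 measures are not independent. By non-coding length the median changes at 2 h lay close together. From up to 500 nt (1982 transcripts) to over 2000 nt (2433) the classes were at -0.04, -0.04, -0.03 and -0.02. During the stress they were at -0.14, -0.78, -1.19 and -1.56.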

How the data were processed

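Footprint and RNA lists held 1 value per transcript and library, deposited by the authors as RPKM for footprints and FPKM for RNA. Cutadapt, Bowtie, STAR and the build GRCm38 are named without versions or roles, per the submitters' processing notes. The annotation is not given in the sources used here, and neither is the counting method. Each library's total and each transcript's length were solved for from the steps of the values, which gave whole reads (relative tolerance 1e-09) for 100.0% of values, largely by construction. Some solved lengths are wrong, since the lowest non-coding length came out at -5139 nt. Reads on listed transcripts also exceeded the solved total in both recovery libraries (8754287 against 8738548 and 9124787 against 9108030). The same held for both unstressed libraries (7261234 against 7248764 and 7593983 against 7580229) and for some other footprint libraries. Coding lengths and read numbers of some transcripts are therefore uncertain. Unlisted transcripts were set to 0. At most 0.304% of listed transcripts of a footprint library had under 5 reads, so unlisted does not mean 0. Libraries were scaled by their median ratio to the geometric mean over transcripts above 0 in every library with a mean of at least 10 (4619 for footprints, 5690 for RNA). Only 14 RNA libraries were used, 4 being left out. Counting intervals (exact conditional binomial, 95%) reflect read numbers alone, and without molecular identifiers several reads can come from 1 molecule. The rule for named transcripts took the 15 largest rises and falls past 2-fold with non-overlapping libraries and at least 40 reads. Without gene names, 2 of each are given by identifier, and other members by coding length, picked by footprint level after their values were seen. RNA changes were added to the planned comparisons after the data were seen. Tests with limma 3.58.1 in R 4.3.3 served as alternatives, and the scripts (Python 3.11.15) were tested on simulated data. Members and lists were chosen with earlier results of these data known. The gene lists set for this comparison could not be applied without gene names. The labels do not say whether libraries came from separate cultures.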

Additional observations from a re-analysis of the deposited data

Results flagged for a closer look

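For 2 of the lower transcripts of highest level, every library of 2 h of recovery lay below the unstressed libraries after the short stress and above them after the long stress. The transcript of 120 codons was at 192 and 194 scaled RPKM in unstressed cells, at 79.8 and 87.1 after the short stress and at 1200 and 1178 after the long one, a log2 change of 2.62. That of 534 codons was at 43.4 and 41.9, then 17.1 and 16.7 after the short and 839 and 846 after the long stress, a log2 change of 4.27. The difference between the 2 recoveries was not tested. Among all called transcripts, such opposite directions in every library were seen in 7 of the 24 lower and 4 of the 61 higher ones, with at least 2-fold differences after the long stress in 2 and 0. The share over all transcripts kept was not computed, and the called ones were chosen on their values after the short stress. These counts are therefore not a trait of the called transcripts.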

How the results depend on the processing

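The 2-fold counts of 61 higher and 24 lower transcripts and the 1.5-fold counts of 174 and 183 stayed within 1.5 times in 37 recomputations and moved further in 15. Counts from the log2 of the 2 libraries' mean, an alternative chosen after seeing the data, were 59 and 22 at 2-fold. A pseudocount of 0.25 gave 39 at least 2-fold lower, and a pseudocount of 5 gave 27 and 5 at 2-fold and 113 and 47 at 1.5-fold. Without the filter on low values 42 were 2-fold and 284 were 1.5-fold lower. With an adjusted p under 0.05 from limma over the 18 libraries also required, 39 and 8 were left at 2-fold. At 1.5-fold 92 and 47 were left. With the replicate number as a block these were 39 and 8, and 89 and 46. The fits took the 2 libraries of a condition as replicates. Their error is thus that between libraries little further apart than sampling noise, and the counts are not a test of the change. Same-numbered libraries did not deviate together (r = 0.00 across 7017 transcripts). Since the libraries of a pair differed by little more than sampling noise, this cannot show whether the numbers pair them. Leaving out 1 library gave 63 to 69 higher and 20 to 31 lower at 2-fold. The log2 changes of the 4 named transcripts kept their sign in every alternative that gave a value. The median change of transcripts with over 1600 codons, -0.02, was 0.0045 without normal replicate 2 and 0 without recovery replicate 2. The balance of 1.5-fold calls turned to more higher than lower with a pseudocount of 5, with scaling over the 4 libraries alone (185 and 177) and with limma. The log2 change of ENSMUST00000098503 ranged from -2.61 to -0.57 over the alternatives that gave a value. Low read numbers limit the calls among weak transcripts.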
